A study of Homo sapiens with 18 samples.

Results

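Replication-dependent histone genes make the core and linker histones that package newly copied DNA. They were taken here as the protein-coding genes of RefSeq on chromosome 6 between 25000 and 28500 kb or on chromosome 1 (hg38) whose symbols are H1- plus a number or start with H2AC, H2BC, H3C or H4C. The rule found 68 of the 19974 protein-coding genes on chromosomes 1 to 22 and X: 6 H1, 17 H2A, 18 H2B, 13 H3 and 14 H4 genes, 55 of them on chromosome 6 and 13 on chromosome 1. Binding was read from chromatin immunoprecipitation and sequencing (ChIP-seq) of FOXA1, a forkhead transcription factor of luminal breast cells that can bind closed chromatin, and of TLE3, a corepressor of the Groucho family that has no DNA-binding domain of its own and is brought to DNA by other proteins. The cells were 3 established human breast cancer lines grown without any stated treatment: MDA-MB-453, which lacks the estrogen receptor, SKBR3, which carries an ERBB2 amplification, and T47D, which has the estrogen receptor. There were 2 libraries, labelled biological replicates, for each factor in each line, 12 in all, and each library had its own peak list. Every group is thus an unmodified line, and the groups of a line differ in antibody and in fixation, since the chromatin for TLE3 was crosslinked with a further reagent ahead of formaldehyde. Antibody and fixation cannot be told apart from the factor.

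These genes are compact, lack introns in their usual form and lie in dense clusters, often as divergent H2A and H2B pairs that share the short stretch between their starts. They are transcribed in S phase from the histone locus body, a nuclear site organised by NPAT, and their messages end in a stem loop bound by SLBP in place of a poly(A) tail. Several promoter elements are well known: a TATA box, CCAAT boxes, and in H2B promoters an octamer read by POU2F1 (OCT1). H1-6, H2AC1 and H2BC1 encode germline histones of the testis.

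The layout of the genes set how the counts could be read. Gene lengths ran from 386 to 29682 bp with a median of 494.5 bp. The 8 genes over 1000 bp have long transcript models in RefSeq. A gene-end peak was a peak whose centre lay within 1 kb of either end of a gene. Windows of 1 kb around the 68 genes joined into 38 stretches and windows of 10 kb into 10, so 1 peak often counted for several genes, and the genes are not independent of each other. FOXA1 lists held 107598 to 188029 peaks and TLE3 lists 21149 to 94363. Depth is unknown because no read counts come with the lists. The library labelled SKBR3 TLE3 replicate 2 stood apart: it held 94363 peaks where replicate 1 held 21149, and its peaks at gene ends had a median width of 719.5 bp, beside 316.5 to 480.0 bp in the other 11 lists. Counts are therefore given for each SKBR3 TLE3 library on its own, and comparisons of the factors with and without it. FOXA1 sites, meaning merged regions with a peak of both replicates, lay within 10 kb of 8 of 8 luminal marker genes in each line, of 2, 2 and 4 of 5 basal markers in MDA-MB-453, SKBR3 and T47D, and of 5 of 5 stroma and blood markers in each line, so a site near a gene did not separate cell types. The labels do not say whether the replicates came from separate cultures, so p-values measure the spread between these libraries, which may be technical.

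Promoter windows of 300 bases, from 250 before to 50 after the start, were available from RefSeq (GRCh38.p14) for 63 of the 68 genes. The windows of 4 genes are printed 5′ to 3′ on the strand of the gene because the results turn on them. H2BC11 (chr6:27132746-27133045, minus strand) lay under the highest ranked FOXA1 site in SKBR3. H2BC15 (chr6:27838319-27838618, plus strand) lay beside the highest ranked FOXA1 site in MDA-MB-453 and under that in T47D. H4C4 (chr6:26189063-26189362, minus strand) lay under TLE3 sites in 2 lines. H2AC1 (chr6:25726513-25726812, minus strand) is a germline gene with no gene-end peak in any of the 12 libraries. Capitals mark matches on either strand to the TATA box letters TATAAA, the box named by its letters CCAAT, the octamer ATTTGCAT, and the forkhead letters TGTTTAC or their variant form TGTTTGC.
H2BC11: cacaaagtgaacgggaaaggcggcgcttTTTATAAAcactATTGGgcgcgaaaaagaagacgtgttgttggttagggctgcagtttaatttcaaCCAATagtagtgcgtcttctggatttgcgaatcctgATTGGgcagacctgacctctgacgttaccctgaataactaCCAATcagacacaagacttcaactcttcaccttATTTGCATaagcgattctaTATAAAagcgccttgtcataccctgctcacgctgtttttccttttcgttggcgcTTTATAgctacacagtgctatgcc
H2BC15: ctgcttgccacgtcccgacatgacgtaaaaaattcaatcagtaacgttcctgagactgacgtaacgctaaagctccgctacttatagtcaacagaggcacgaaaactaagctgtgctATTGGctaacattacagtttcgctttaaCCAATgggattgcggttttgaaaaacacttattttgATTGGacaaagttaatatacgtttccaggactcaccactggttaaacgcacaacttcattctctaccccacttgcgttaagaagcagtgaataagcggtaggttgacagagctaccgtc
H4C4: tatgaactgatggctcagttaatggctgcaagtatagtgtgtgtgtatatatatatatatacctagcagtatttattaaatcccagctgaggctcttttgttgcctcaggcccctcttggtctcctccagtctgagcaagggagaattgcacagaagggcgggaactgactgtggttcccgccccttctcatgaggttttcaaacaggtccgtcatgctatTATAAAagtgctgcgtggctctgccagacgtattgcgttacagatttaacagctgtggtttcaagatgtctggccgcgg
H2AC1: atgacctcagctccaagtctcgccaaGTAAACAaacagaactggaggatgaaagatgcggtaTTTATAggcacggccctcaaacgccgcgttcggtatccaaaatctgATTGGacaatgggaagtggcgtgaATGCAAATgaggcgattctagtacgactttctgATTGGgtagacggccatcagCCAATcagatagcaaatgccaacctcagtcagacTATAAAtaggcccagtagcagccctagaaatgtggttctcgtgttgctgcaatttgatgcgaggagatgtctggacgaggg

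The forkhead letters are in 1 of these 4 windows, that of H2AC1, and the letters are absent from the windows of H2BC11, H2BC15 and H4C4, which FOXA1 sites overlapped in MDA-MB-453 and SKBR3, in all 3 lines, and in MDA-MB-453 and T47D, respectively. Over all 63 windows, TGTTTAC was found in 2 (3.17%) and TGTTTGC in 4 (6.35%), beside 3.41% and 3.87% of the 27305 promoters in the table. Among the 15813 promoters of protein-coding genes the shares were 2.62% and 3.16%. Either form was present in 6 windows (9.52%, beside 7.15% of all promoters and 5.69% of those of protein-coding genes). These were H2AC1, H2BC1, whose window overlaps that of H2AC1, H1-1, H3C3, H2BC5 and H2BC6. FOXA1 peaks overlapped 38 to 52 of the 63 windows per library (60.3% to 82.5%), beside 16.6% to 44.9% of the 15812 windows of protein-coding genes. They overlapped 1 to 3 of the 6 windows with forkhead letters and 37 to 49 of the 57 without. The letters typical of histone promoters were common: TATAAA was in 41 windows (65.1%, beside 11.9% of all promoters), CCAAT in 54 (85.7%, beside 35.7%) and the octamer in 26 (41.3%, beside 1.80%). CCAAT was in every available H1, H2A, H2B and H3 window and in 3 of 12 H4 windows, and the octamer was in 14 of 18 H2B and 11 of 16 H2A windows. FOXA1 peaks overlapped 19 to 24 of the 26 windows with the octamer per library. A match is a run of letters and not a bound site, and peaks that lie beyond these windows were not searched.

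Most of the histone genes had a FOXA1 peak at an end in every line. In MDA-MB-453, 58 and 58 of 68 genes had a gene-end peak in FOXA1 replicates 1 and 2, 85.3% in each, beside 54.9% and 45.1% of all protein-coding genes. In SKBR3 the numbers were 50 and 52 (73.5% and 76.5%), beside 29.1% and 31.3% of all genes. In T47D they were 54 and 55 (79.4% and 80.9%), beside 49.8% and 42.8%. The replicates of a line differed by at most 2 genes, and the lowest share of histone genes, in SKBR3 replicate 1, lay above the highest share of all genes, in MDA-MB-453 replicate 1.

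TLE3 gene-end peaks were fewer and followed the share of all genes. In MDA-MB-453, 10 and 3 histone genes had one in replicates 1 and 2 (14.7% and 4.41%), beside 11.6% and 4.5% of all genes. In T47D, 15 and 33 had one (22.1% and 48.5%), beside 20.3% and 45.8%. SKBR3 replicate 1 had none at any of the 68 genes, beside 6.11% of all genes, and the library labelled SKBR3 TLE3 replicate 2 had one at 35 genes (51.5%), beside 57.0%. The replicates of TLE3 thus differed by more histone genes than those of FOXA1 in each line.

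**Figure D1:**
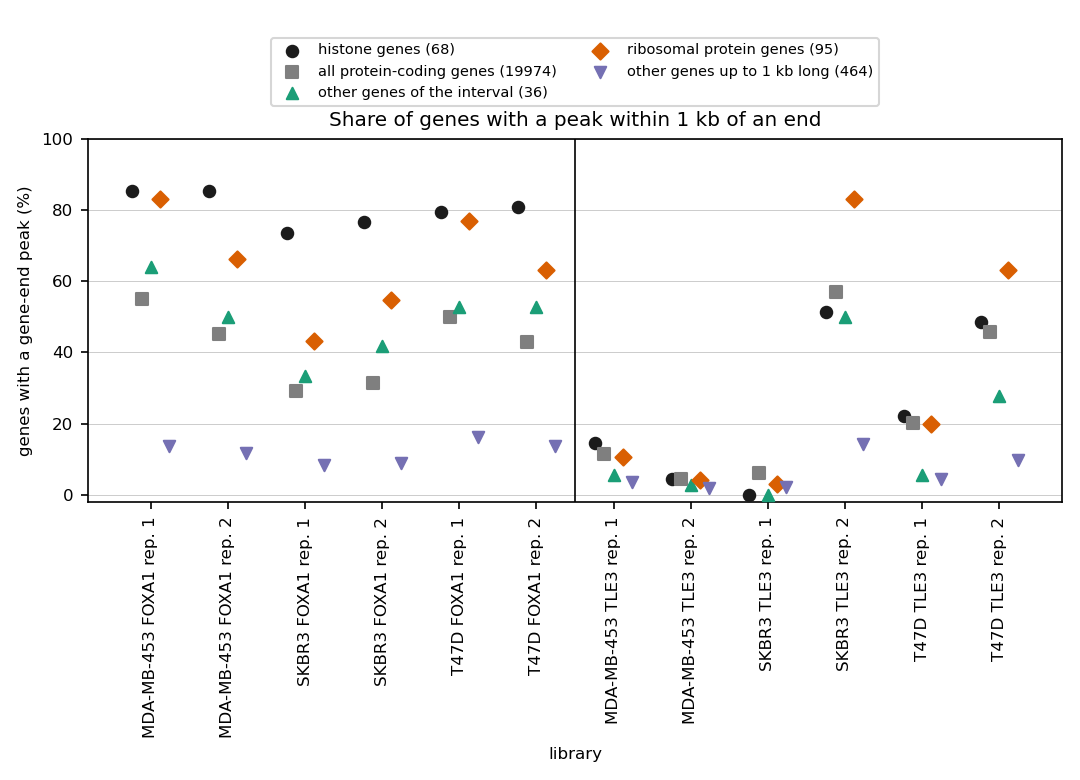
Share of genes with a gene-end peak (%, vertical axis) in each of the 12 libraries (horizontal axis), with FOXA1 left of the line and TLE3 right of it; each symbol is a gene list, with its number of genes in the key. The histone genes (black) lie at 73.5% to 85.3% for FOXA1, above the other 4 lists plotted in each of the 6 libraries, and at 0% to 51.5% for TLE3, near all protein-coding genes.

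The comparison with other genes depended on the list chosen. The 11002 other protein-coding genes no longer than the longest histone gene had a FOXA1 gene-end peak in 26.2% to 49.9% of cases. The 464 other protein-coding genes of up to 1 kb had a FOXA1 gene-end peak in 8.41% to 16.2% of cases. The 36 genes of other kinds in the same interval of chromosome 6 had one in 33.3% to 63.9%. A list of 95 genes with symbols RPL or RPS plus a number, called ribosomal protein genes here, had one in 43.2% to 83.2%. This list went by symbol alone and can hold genes of other kinds, and transcription was not measured. In each FOXA1 library the histone genes had a higher share than each of these lists. The ribosomal protein genes came closest, at 83.2% beside 85.3% in MDA-MB-453 replicate 1 and 76.8% beside 79.4% in T47D replicate 1. Other lists were as high or higher in places: the 14 histone chaperone genes were at 100% and 92.9% in MDA-MB-453, the 24 genes of histone gene expression at 87.5% in T47D replicate 1, and the 8 luminal markers at 87.5% in both MDA-MB-453 libraries and at 75.0% in SKBR3 replicate 1. For TLE3 the ribosomal protein genes were higher than the histone genes in T47D replicate 2 (63.2% beside 48.5%) and in SKBR3 replicate 2 (83.2% beside 51.5%). Joining histone genes that lie within 1 kb of each other gave 45 stretches for the 68 genes, so that 1 peak can count for more than 1 gene. The part of this in these shares was not tested.

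Seen gene by gene, 46 of the 68 (67.6%, beside 19.9% of all protein-coding genes) had a gene-end peak in all 6 FOXA1 libraries. Another 14 (20.6%, beside 44.7%) had one in 1 to 5 of them, and 8 (11.8%, beside 35.4%) in none. No histone gene had a TLE3 gene-end peak in 5 or all 6 TLE3 libraries, beside 2.42% and 1.45% of all genes. H2BC21, H2AC21 and H4C4 had one in 4 (3 genes, 4.41%, beside 5.18% of all genes), and 21 had none (30.9%, beside 33.4%); without SKBR3 TLE3 replicate 2, 34 had none (50%, beside 52.0%). Each of the 47 histone genes with a TLE3 gene-end peak also had a FOXA1 gene-end peak in some library: 0 had TLE3 alone, beside 11.2% of all genes, or 3.92% without SKBR3 TLE3 replicate 2.

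**Figure D2:**
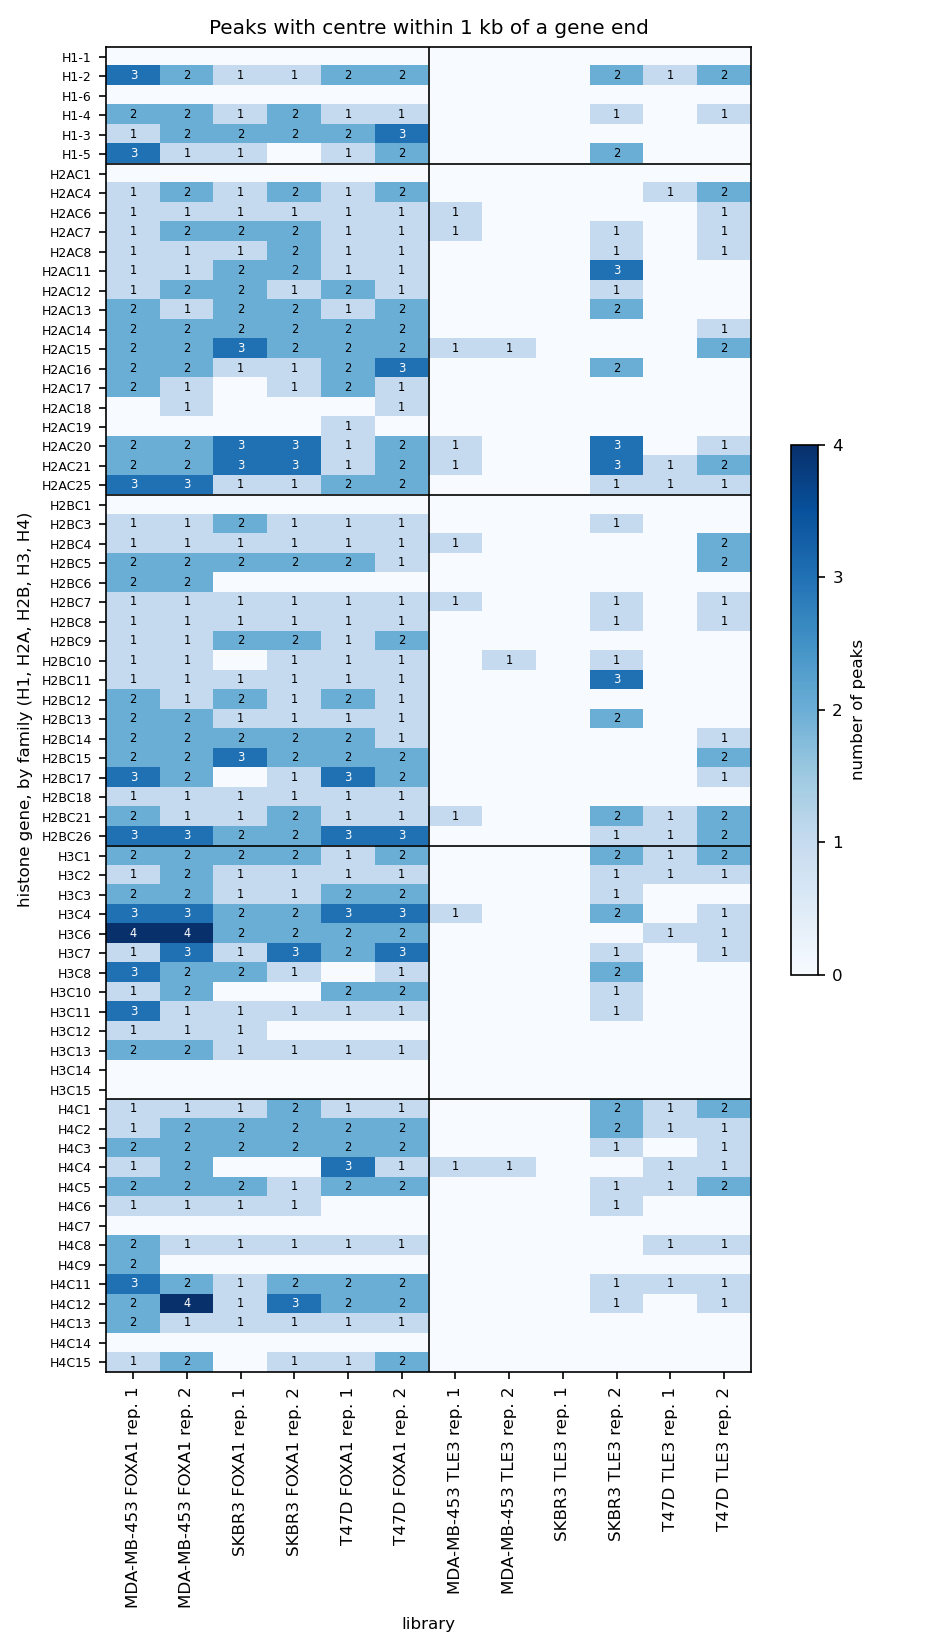
Number of peaks with centre within 1 kb of an end (colour and digit, 0 to 4, blank for 0) for each of the 68 histone genes (rows, grouped by family and ordered along the chromosomes) in each of the 12 libraries (columns, FOXA1 left of the line, TLE3 right). FOXA1 columns are filled for 50 to 58 genes, the column of SKBR3 TLE3 replicate 1 is blank, and 8 rows are blank throughout.

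The linker histone genes, whose products bind the DNA between nucleosomes, split into occupied and empty loci. H1-2, H1-3 and H1-4 had gene-end peaks in all 6 FOXA1 libraries, H1-5 in 5, and H1-1 and H1-6 in none. H1-2 had 3 and 2 FOXA1 peaks at its ends in MDA-MB-453, 1 and 1 in SKBR3 and 2 and 2 in T47D. Its TLE3 peaks numbered 0 and 0 in MDA-MB-453, 0 and 2 in SKBR3 and 1 and 2 in T47D. TLE3 gene-end peaks at H1 genes were thus seen only in T47D and, for SKBR3, in the library labelled replicate 2.

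Among the H2A genes, 14 to 15 of 17 had a FOXA1 gene-end peak per library in MDA-MB-453, 13 to 14 in SKBR3 and 15 in each T47D library. H2B genes were the most often occupied family, with 17 of 18 in each MDA-MB-453 library, 14 and 16 in SKBR3 and 16 in each T47D library. Divergent partners shared peaks: the highest ranked FOXA1 gene-end peak of H2AC7 was also that of H2BC7. It lay at percentiles 80.9 and 70.0 of the list by score in MDA-MB-453, 70.3 and 82.3 in SKBR3 and 89.6 and 89.6 in T47D. H3C4, whose start in RefSeq is that of H2AC7, had the same highest ranked peak. H2AC21 had 2 and 2 FOXA1 gene-end peaks in MDA-MB-453, 3 and 3 in SKBR3 and 1 and 2 in T47D. Its TLE3 peaks numbered 1 and 0, 0 and 3, and 1 and 2 in the same order. The T47D numbers of the factors overlapped, while in MDA-MB-453 both FOXA1 libraries were above both TLE3 libraries. H2BC26, at the far cluster on chromosome 1, had 3 and 3, 2 and 2, and 3 and 3 FOXA1 peaks, and 0 and 0, 0 and 1, and 1 and 2 TLE3 peaks.

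H3 genes had FOXA1 gene-end peaks in 9 to 11 of 13 cases and H4 genes in 9 to 12 of 14. H4 genes had the most TLE3 in T47D, with 6 and 8 of 14 genes in replicates 1 and 2, beside 3 and 9 of 17 H2A, 2 and 9 of 18 H2B, 3 and 5 of 13 H3 and 1 and 2 of 6 H1 genes; the difference between families was not tested. H4C4 differed between lines. It had 1 and 2 FOXA1 gene-end peaks in MDA-MB-453, 0 and 0 in SKBR3, and 3 and 1 in T47D. Its TLE3 peaks numbered 1 and 1 in MDA-MB-453, 0 and 0 in SKBR3, and 1 and 1 in T47D. Both factors were thus present at its ends in every library of MDA-MB-453 and T47D and in none of SKBR3.

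The genes with no gene-end peak in any library were H1-1, H1-6, H2AC1, H2BC1, H3C14, H3C15, H4C7 and H4C14 (11.8%, beside 24.2% of all genes). The 3 germline genes named above are among them. H2AC1 and H2BC1 nonetheless had 1 and 2 FOXA1 peaks within 10 kb in MDA-MB-453, 1 and 1 in SKBR3 and 3 and 2 in T47D. H4C14 was the only gene with no peak within 10 kb in any library. It lies in the part of chromosome 1 where histone genes are duplicated: its promoter window is identical to that of H4C15 over 300 bases, the windows of H3C14 and H3C15 share a run of 296 bases, and those of H2AC18 and H2AC19 share 299. H2AC18 had a gene-end peak in 2 libraries and H2AC19 in 1. Reads from such copies cannot be placed by sequence alone, the sources used here do not say how the authors treated them, and the part of this in the empty loci was not tested.

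Peak ranks were read from the authors' own score, as the percentile of each peak within its own list. The median percentile of FOXA1 gene-end peaks at histone genes was 58.6 and 48.4 in MDA-MB-453, 39.6 and 46.8 in SKBR3 and 62.0 and 65.4 in T47D, beside 49.5 and 46.2, 44.5 and 42.8, and 49.0 and 52.2 over all gene-end peaks of the same libraries. In T47D the histone peaks thus ranked higher in both libraries, and in SKBR3 replicate 1 they ranked lower. TLE3 gene-end peaks at histone genes ranked low: the medians were 5.78 (6 peaks) and 14.5 (3 peaks) in MDA-MB-453, 25.9 (38 peaks) in the library labelled SKBR3 TLE3 replicate 2, and 18.9 (12 peaks) and 36.6 (32 peaks) in T47D, each below the 28.0, 32.7, 39.4, 33.8 and 43.0 of all gene-end peaks. FOXA1 peaks at histone genes had a median width of 554 to 681 bp, beside 415 to 480 bp for all gene-end peaks, and a wide peak can hold several summits that the lists do not give.

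**Figure D3:**
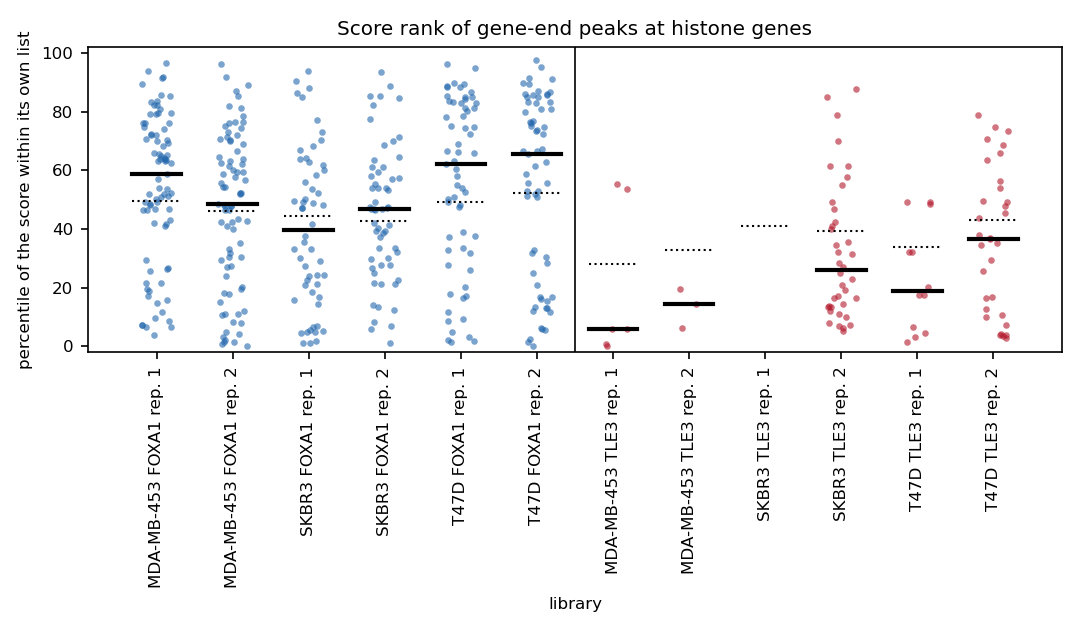
Percentile of the authors' score within its own list (vertical axis, 0 to 100) for each gene-end peak at a histone gene (points, spread sideways for sight) in each library (horizontal axis, FOXA1 left of the line); solid bars are medians of these peaks and dotted bars medians of all gene-end peaks of the library. TLE3 medians of 5.78 to 36.6 lie below the dotted bars in each of the 5 libraries with peaks, while FOXA1 medians lie above them in 5 of 6.

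The high FOXA1 shares rested on peaks of middle rank. With the upper 50% of each list by score, 51 and 45 histone genes kept a FOXA1 gene-end peak in MDA-MB-453 (beside 33.7% and 24.4% of all genes), 26 and 29 in SKBR3 (14.0% and 14.7%) and 47 and 44 in T47D (28.8% and 25.3%). With every list cut to its 21149 highest scores, the length of the shortest, the numbers fell to 6 and 5 in MDA-MB-453 (6.11% and 5.51% of all genes), 6 and 9 in SKBR3 (5.45% and 5.01%) and 13 and 16 in T47D (8.1% and 8.51%). These are 8.82% and 7.35%, 8.82% and 13.2%, and 19.1% and 23.5% of the 68 genes. TLE3 at that length had a gene-end peak at 2 and 2 histone genes in MDA-MB-453 (2.94% each, beside 3.38% and 3.83% of all genes), at 0 and 4 in SKBR3 (0% and 5.88%, beside 6.11% and 12.2%), and at 7 and 7 in T47D (10.3% each, beside 11.7% and 13.0%). Both FOXA1 libraries were thus above both TLE3 libraries at histone genes in each line. Over all genes the order was the opposite in T47D and SKBR3 and the same in MDA-MB-453.

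Around the 55 histone genes of up to 1000 bp with a known strand, the 250 bp before the start held the most FOXA1 peak centres of any 250 bp bin within 2 kb in each of the 6 libraries. The numbers were 20 and 17 in MDA-MB-453, 14 and 16 in SKBR3 and 12 and 15 in T47D. Most centres lay elsewhere: the 500 bp before the start held 20.0%, 24.5% and 19.8% of the FOXA1 centres within 2 kb in the 3 lines, and the 500 bp after it 15.6%, 17.0% and 15.8%. No profile of other genes was made. The 250 bp after the start held 10 and 10, 5 and 9, and 6 and 10. For TLE3, MDA-MB-453 had 2 and 1 centres in the bin before the start and 1 and 0 in the bin after it, and T47D had 0 and 3 before and 2 and 3 after. The library labelled SKBR3 TLE3 replicate 2 had 1 centre before the start and 11 after it, and SKBR3 replicate 1 had 0 in both bins. TLE3 had 18, 59 and 61 centres within 2 kb in MDA-MB-453, SKBR3 and T47D, those of SKBR3 mostly from replicate 2. The 500 bp before the start held 22.2%, 10.2% and 8.20% of them, and the 500 bp after it 11.1%, 33.9% and 24.6%. A peak between divergent genes is counted once for each gene, so these are pairs of a gene and a peak.

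**Figure D4:**
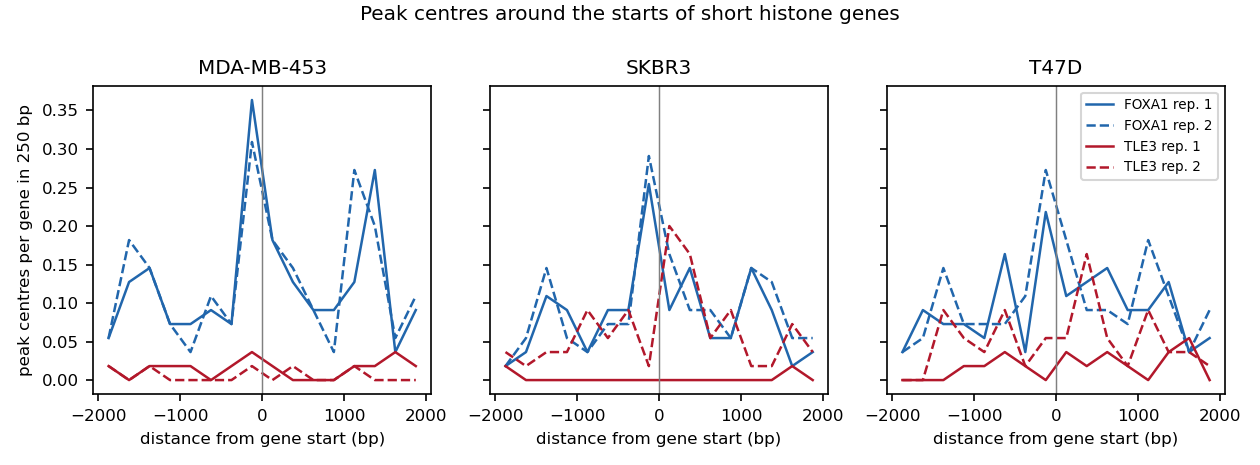
Peak centres per gene in bins of 250 bp (vertical axis) against the distance from the gene start in bp (horizontal axis, negative upstream) for 55 short histone genes, in 3 panels by line; blue lines are FOXA1, red lines TLE3, solid replicate 1 and dashed replicate 2. The FOXA1 lines peak in the bin just upstream of the start in all 6 libraries, and the dashed TLE3 line of SKBR3 peaks just downstream. The dashed TLE3 line of T47D peaks 250 to 500 bp downstream.

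Within 10 kb, a FOXA1 peak lay near 66 histone genes in SKBR3 replicate 1 and near 67 in each of the other 5 FOXA1 libraries. Among all protein-coding genes the shares were 85.5% and 80.1% in MDA-MB-453, 69.4% and 71.1% in SKBR3, and 81.9% and 81.2% in T47D. TLE3 peaks lay within 10 kb of 25 and 9 histone genes in MDA-MB-453 (beside 38.0% and 21.4% of all genes) and of 28 and 46 in T47D (beside 41.8% and 68.5%). These are 36.8% and 13.2%, and 41.2% and 67.6%, of the 68 genes. They were close to the share of all genes in MDA-MB-453 replicate 1 and in T47D. In MDA-MB-453 replicate 2 the share was lower, from 3 distinct peaks. Counting only sites, FOXA1 lay near 67 histone genes in both MDA-MB-453 and T47D and near 66 in SKBR3, beside 78.5%, 75.6% and 63.9% of all protein-coding genes. The genes without one were H4C14 in each line and H2BC6 in SKBR3. These were 114 distinct sites in MDA-MB-453, 91 in T47D and 66 in SKBR3. Of the 36 other genes of the chromosome 6 interval, 32, 30 and 27 had a FOXA1 site within 10 kb in the same order. The highest ranked site in MDA-MB-453 (chr6:27839366-27840581, mean percentile 96.3) had its centre 863 bp outside H2BC15. In T47D the highest (chr6:27838059-27840562, 96.9) covered the gene and its promoter. H2BC15 had 2 and 2 FOXA1 gene-end peaks in MDA-MB-453, 3 and 2 in SKBR3 and 2 and 2 in T47D, against 0 and 0, 0 and 0, and 0 and 2 for TLE3. In SKBR3 the highest site (chr6:27131536-27133160, 93.5) covered H2BC11 and the promoter it shares with H2AC11. That gene had 1 FOXA1 gene-end peak in each of the 6 libraries.

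TLE3 sites near histone genes were few in MDA-MB-453 and SKBR3. In MDA-MB-453, 7 histone genes had a TLE3 site within 10 kb (10.3%, beside 20.5% of all genes), from 2 distinct sites. The first lay at H4C4 (chr6:26188935-26189465, its centre 88 bp outside the gene, percentile 29.8) over the promoter printed above, and the other 655 bp from H2AC15 (chr6:27837015-27837436, percentile 37.5). In SKBR3, 4 genes had one (5.88%, beside 13.9%), all from a single site 1158 bp from H2AC11 (chr6:27134437-27134950). Taken alone, SKBR3 TLE3 replicate 1 had a peak within 10 kb of the same number, 4 genes (beside 24.5% of all genes), and the library labelled replicate 2 of 60 (beside 85.2%).

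T47D had more. There, 26 histone genes had a TLE3 site within 10 kb (38.2%, beside 41.0% of all genes), from 12 distinct sites, 11 of them at FOXA1 sites. The 36 neighbours of other kinds had one in 5 cases (13.9%). The highest ranked (chr6:26054920-26055575, percentile 61.3) had its centre 493 bp from H1-2, followed by sites inside H4C1 (chr6:26021307-26022193, 59.9) and inside H4C4 (chr6:26188814-26189403, 58.6). Sites also lay at H4C2, H2AC4, H4C8, H3C6 and H4C11, and on chromosome 1 at H2BC21 (chr1:149885561-149886140, 46.1), H2AC21 (chr1:149888237-149888767, 48.2) and H2AC25 (chr1:228457223-228457907, 26.3). The site 1254 bp from H3C3 (chr6:26046951-26047296) alone overlapped no FOXA1 site. The site at H4C4 was thus present in both MDA-MB-453 and T47D, and the percentiles of TLE3 sites near histone genes ranged from 9.63 at H4C11 to 61.3.

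TLE3 peaks at histone genes were set against the FOXA1 sites of the same line. Of the gene-end peaks, 6 of 6 (Wilson 95% interval 61.0% to 100.0%) and 3 of 3 (43.9% to 100.0%) overlapped one in MDA-MB-453, beside 84.7% and 92.1% of the other gene-end TLE3 peaks of the libraries. In T47D, 12 of 12 (75.8% to 100.0%) and 28 of 32 (87.5%, 71.9% to 95%) did so, beside 64.8% and 54.4%. For SKBR3, replicate 1 had no such peak, and in the library labelled replicate 2, 28 of 38 lay on FOXA1 sites (73.7%, 58.0% to 85.0%), beside 23.3%. The shares depended on the lists: with equally long lists they were 50%, 0% and 36.4% over the libraries of MDA-MB-453, SKBR3 and T47D. With an overlap of 50% of the shorter peak the share was 44.7% in SKBR3, and with the upper 50% of the lists by score 37.5%. The shares of the other gene-end peaks at these settings are not given. The intervals cover counting error only and take peaks as independent. Neighbouring peaks of a cluster may not be independent, so the intervals cannot decide whether the shares differ from those of the other gene-end peaks. FOXA1 sites are also dense along the histone clusters. MDA-MB-453 had a mean of 5.19 within 10 kb of a histone gene, beside 2.19 for all genes. The means were 3.12 beside 1.45 for SKBR3, and 4.29 beside 1.89 for T47D. The part of that density in these shares was not tested.

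FOXA1 and TLE3 were compared gene by gene with an exact permutation test, two-sided, in which factor labels were exchanged inside each line, with Benjamini-Hochberg adjustment over all genes with a peak. H2AC14, an H2A gene, had 13 and 13 FOXA1 peaks within 10 kb in MDA-MB-453, 6 and 7 in SKBR3 and 10 and 10 in T47D. Its TLE3 peaks within 10 kb numbered 0 and 0, 0 and 5, and 1 and 2. No FOXA1 library overlapped a TLE3 library of its line, and the difference of 8.50 peaks (means of 9.83 and 1.33 over 6 libraries each) had an adjusted permutation p of 0.079. Without SKBR3 TLE3 replicate 2 the difference was 9.33 and passed, with an adjusted permutation p of 0.0354. Its divergent partner H2BC14 had the same numbers. H4C12 had 10 and 12, 6 and 8, and 9 and 9 FOXA1 peaks and 1 and 1, 0 and 2, and 1 and 5 TLE3 peaks, a difference of 7.33 (adjusted permutation p = 0.079), or 7.67 (0.0354) without that library. H3C4 had 10 and 14, 5 and 8, and 11 and 10 FOXA1 peaks, and 3 and 1, 0 and 3, and 3 and 4 TLE3 peaks, a difference of 7.33 (adjusted permutation p = 0.079), or 7.83 (0.0354) without it. The smallest p that the arrangements allow for a gene is 0.00926. H2AC14, H2BC14, H4C12 and H3C4 had this unadjusted permutation p both with and without SKBR3 TLE3 replicate 2. Their adjusted values thus changed with the other genes tested and not with their own p.

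Over the 12 libraries 0 of 19052 genes passed at 10 kb, histone genes included, and 59 of the 67 histone genes tested had an unadjusted permutation p under 0.05, beside 30.4% of all genes. Within 1 kb 0 of 15132 genes passed, and 29 of 60 histone genes were under 0.05, beside 9.89%. Without SKBR3 TLE3 replicate 2, 62 of 67 histone genes passed at 10 kb, all with more FOXA1, beside 38.8% of 18569 genes; their adjusted permutation p ran from 0.0354 to 0.0478 over 108 arrangements. Those that passed were 6 of 6 H1, 14 of 17 H2A, 16 of 18 H2B, 13 of 13 H3 and 13 of 13 tested H4 genes. The 5 that did not were H2BC21, H2AC20 and H2AC21 (adjusted permutation p = 0.102 each), H2BC6 (0.0568) and H2AC6 (0.193). At 1 kb 0 genes passed without that library, and 36 of 60 histone genes had an unadjusted permutation p under 0.05, beside 19.2%.

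Among the histone genes that did not pass, H2BC21 had 3 and 3, 4 and 4, and 2 and 3 FOXA1 peaks within 10 kb, against 2 and 0, 0 and 4, and 2 and 3 for TLE3, so that the factors overlapped in T47D. H2AC6 had 2 and 2, 2 and 2, and 2 and 3 FOXA1 peaks, against 2 and 0, 0 and 0, and 0 and 3. The number of FOXA1 peaks was higher than that of TLE3 for 67 of 67 histone genes, beside 86.9% of all genes, with a median difference of 4.17 peaks, beside 1.17. Without SKBR3 TLE3 replicate 2 it was also higher for 67 of 67, beside 97.3% of all genes, with a median difference of 4.67, beside 1.67.

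Not every histone gene had more FOXA1 once the length of the lists was taken out. With peaks counted per 10000 peaks of the list and without SKBR3 TLE3 replicate 2, 0 genes passed at 10 kb; 62 histone genes had more FOXA1 and 5 more TLE3, beside 60.3% of all genes with more FOXA1. With equally long lists and without that library, 0 passed, and 38 of 54 tested histone genes had more FOXA1 and 8 more TLE3, beside 38.8% of all genes with more FOXA1. Over the 12 libraries, equally long lists gave 36 of 56 histone genes with more FOXA1 and 16 with more TLE3 at 10 kb. At 1 kb they gave 17 and 9 of 29. Among all genes 30.6% and 27.2% had more FOXA1 at these distances, and 0 passed at either.

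**Figure D5:**
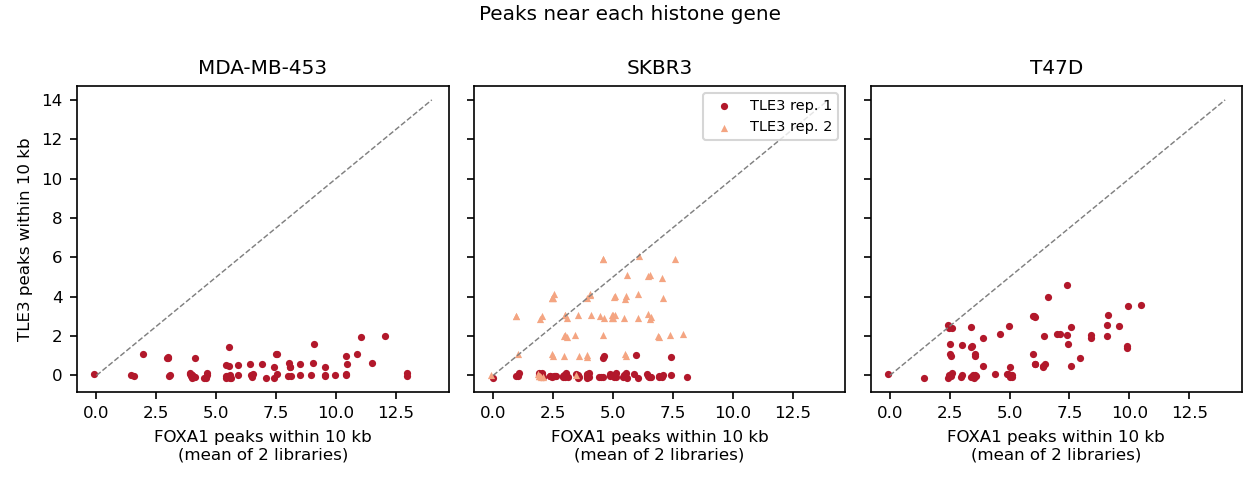
TLE3 peaks (vertical axis) against FOXA1 peaks (horizontal axis, mean of both libraries) within 10 kb of each of the 68 histone genes, in 3 panels by line; the vertical value is the mean of both TLE3 libraries in MDA-MB-453 and T47D and each TLE3 library on its own in SKBR3 (circles replicate 1, triangles replicate 2). Points are shifted slightly for sight, and the dashed line marks equal numbers. FOXA1 values reach 13 in MDA-MB-453 and H4C14 sits at 0 on both axes in each panel.

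Both libraries of FOXA1 were above both of TLE3 within 10 kb for 66 histone genes in MDA-MB-453 (97.1%, beside 72.1% of all genes), 45 in SKBR3 (66.2%, beside 18.2%) and 57 in T47D (83.8%, beside 45.8%). Against SKBR3 TLE3 replicate 1 alone the number was 66 (beside 59.8%). No histone gene had both TLE3 libraries above both FOXA1 libraries in any line, beside 0.01%, 0.696% and 1.06% of all genes.

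Genes that work with the histone genes were read from lists drawn up by function. A list of 13 histone genes was drawn up as replication-independent. It also held H4C16 on chromosome 12, whose symbol matches the rule above but whose chromosome does not. Of this list, 7 of 12 tested had more FOXA1 within 10 kb at an adjusted permutation p under 0.05 without SKBR3 TLE3 replicate 2. In the same test 0 had more TLE3. The numbers were 10 of 24 for factors of histone gene expression and 8 of 14 for histone chaperones, with 0 for TLE3 in each, beside 38.8% of all genes tested, and over the 12 libraries 0 genes of these lists passed. H3-3A and H3-3B, which encode the replacement form of H3, had gene-end peaks in 6 of 6 FOXA1 and 6 of 6 TLE3 libraries. They were named for having the most libraries of their list. In the same list CENPA had peaks in 6 FOXA1 libraries and 1 TLE3 library, MACROH2A1 in 0 and 3, and H3-5 in none. No replication-dependent histone gene had a peak in all 6 TLE3 libraries, beside 1.45% of all genes. NPAT had 2 and 1, 1 and 1, and 1 and 2 FOXA1 gene-end peaks in MDA-MB-453, SKBR3 and T47D and 1 and 0, 0 and 1, and 1 and 1 for TLE3. SLBP had 3 and 3, 1 and 1, and 3 and 2 FOXA1 peaks and 1 and 0, 0 and 2, and 1 and 2 TLE3 peaks. CCNE1, the cyclin that with CDK2 activates NPAT, had 1 FOXA1 peak in each of the 6 libraries and TLE3 peaks in 3. CHAF1A, a subunit of the chaperone that deposits new H3 and H4 behind the replication fork, had FOXA1 gene-end peaks in 5 libraries and TLE3 peaks in 5.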

How the data were processed

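TLE3 and FOXA1 were measured by ChIP-seq in 12 libraries, 2 per factor in each of 3 lines. Per the submitters' processing notes, the tools were MACS2, BWA 0.7.5a, Trim Galore and SAMtools, and the build was hg38. The sources used here give no settings or filters, and the 6 inputs were not used here. Each deposited list gives positions and a score per peak, whose lowest value was 2.00 to 2.04 and whose quantity the sources used here do not name. It served only to rank peaks within a list. Of 1134209 peaks, 15 outside chromosomes 1 to 22 and X were left out. Depth is unknown, since the lists hold no read counts.

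Samples were grouped by title. Genes and promoters came from RefSeq tables of GRCh38.p14, the build of the files. The gene table gives no strand, so distances run from the peak centre to either gene end; strand for the start profile came from the promoter table. A site is a merged region with a peak of both replicates, overlap means at least 1 bp, and the threshold was 0.05. Tests used Python 3.11.15, numpy 2.4.6, pandas 2.3.3 and scipy 1.17.1, and the permutation code was tested on simulated data. Differences are means of the differences within lines.

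The genes and lists were chosen with earlier results of these data known. Named were the 10 genes with gene-end peaks in the most libraries, the next 6 by TLE3 libraries, the gene of the highest ranked site of each group, the 5 with the most peaks within 10 kb, genes with none, the 10 largest differences that passed, and 3 per other list; not all are printed, and other names were chosen after their values were seen. Chosen after seeing the data were the list of genes up to 1 kb and the 2 scalings without SKBR3 TLE3 replicate 2.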

Additional observations from a re-analysis of the deposited data

How the results depend on the processing

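Of 159 recomputed values, 115 stayed within the limits set for a change (1.5 times for a count) and 44 moved; the cause was not tested beyond what each setting leaves out. Means of the numbers of histone genes with a gene-end peak were 58, 51 and 54.5 for FOXA1 and 6.5, 17.5 and 24 for TLE3 in MDA-MB-453, SKBR3 and T47D. With equally long lists they were 5.5, 7.5 and 14.5 for FOXA1 and 2, 2 and 7 for TLE3. The shares of all genes at that length were 5.01% to 8.51% for FOXA1 and 3.38% to 13.0% for TLE3. With full lists they were 29.1% to 54.9% and 4.5% to 57.0%. With the upper 50% by score the means for histone genes were 27.5 for FOXA1 in SKBR3 and 1, 5 and 5 for TLE3. In MDA-MB-453 TLE3 they were 11 within 3 kb and 3.5 within 500 bp. Leaving out a library gave 3 to 10, 0 to 35 and 15 to 33 for TLE3 in the 3 lines.

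Histone genes with a FOXA1 site within 10 kb went from 67, 66 and 67 to 11, 12 and 30 with equally long lists. For TLE3 they went from 7, 4 and 26 to 3, 0 and 11 with equally long lists, to 0 in each line with the upper 50% by score, to 34, 7 and 56 within 50 kb and to 27, 60 and 46 with a peak of either replicate. Within 5 kb the number in MDA-MB-453 was 4. Leaving out a library gave 9 to 25, 4 to 60 and 28 to 46. Shares of all genes under these settings are not given, so these numbers describe the histone genes alone.

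TLE3 gene-end peaks on FOXA1 sites went from 100%, 73.7% and 90.9% to 50%, 0% and 36.4% with equally long lists. With the upper 50% by score they were 37.5% in SKBR3 and 100% in T47D, and with an overlap of 50% of the shorter peak 44.7% in SKBR3. Leaving out a library gave 87.5% to 100% in T47D. The shares of the other gene-end TLE3 peaks under these settings are not given. Histone genes that passed the permutation test at 10 kb numbered 0, and 0 to 62 when a library was left out, with 62 reached only without SKBR3 TLE3 replicate 2.

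The replicate numbers did not pair the libraries: their deviations correlated at -0.00238, 0.000629 and -0.0822 across genes in the 3 lines. With the replicate number as a block, 0 histone genes passed at either distance over 64 arrangements. At 10 kb 49 of 67 had an unadjusted permutation p under 0.05, beside 15.4% of all genes tested. Without the block the number was 59, beside 30.4%. Depth limits every count, since a short list may be a shallow library.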
